A study of Mus musculus with 17 samples.

Results

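The SGLT and GLUT genes of the mouse kidney were examined as 8 listed genes out of 21938 protein-coding genes. The rule names the genes and has no threshold on a measured value. It holds 4 sodium-glucose cotransporter genes (Slc5a2, Slc5a1, Slc5a9 and Slc5a10) and 4 genes of facilitative transporters (Slc2a1, Slc2a2, Slc2a4 and Slc2a5). For each gene, summits of ATAC-seq, which reads out the chromatin that a transposase can reach, were collected from 10 kb upstream of the gene to its end. Whole kidneys of male mice from 17 animals gave 1 library each, made from 20000 cells of mixed types. Ctrl mice (n = 5) were C57BL/6 animals given saline. Case mice (n = 6) were BKS.Cg-Dock7m +/+ Leprdb/J (db/db) animals, which lack a working leptin receptor and become obese and diabetic, and they also received saline. Dapa mice (n = 6) were db/db animals given dapagliflozin, an inhibitor of SGLT2, at 1 mg/kg/day. Treatment lasted 6 weeks from 8 weeks of age. Ctrl differs from both other groups in strain, in the receptor and in diabetes, and these cannot be told apart. In a whole kidney, fewer cells of a type and less accessible chromatin per cell cannot be told apart either.

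Glucose that passes the glomerular filter is taken back by the proximal tubule. SGLT2, and further along SGLT1, carry it with sodium across the apical membrane, and GLUT2 and GLUT1 let it leave across the basolateral membrane. Dapagliflozin blocks SGLT2, so that glucose is lost in the urine. GLUT4 is best known as the insulin-responsive transporter of muscle and fat, and GLUT5 carries fructose. SGLT4 (Slc5a9) and SGLT5 (Slc5a10) carry mannose and fructose as well as glucose or related sugars, and SGLT5 is a kidney transporter.

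Sequences at 5 places around which the results turn are given first, from the RefSeq genome of build GRCm38 (mm10) on the strand of the gene. Slc5a2 is shown by the 250 bases before its start (chr7:128265407-128265656, plus strand), because the summits that were rarer in Case lay here and just inside the gene. Slc2a4 is shown by 201 bases around the median summit of its upstream element (chr11:69948968-69949168, minus strand). In the equal-length lists this gene had the widest difference in rank percentile between Case and Ctrl of the 8 genes. Slc2a1 (chr4:119108461-119108710, plus strand) and Slc5a9 (chr4:111898770-111899019, minus strand) are shown by the 250 bases before the start that was open in all 17 libraries. For Slc5a9 that start is an alternative one inside the gene. Slc2a5 is shown by 201 bases of an intronic element found in 16 libraries (chr4:150132950-150133150, plus strand). Capitals mark matches to the motifs searched.
Slc5a2 upstream: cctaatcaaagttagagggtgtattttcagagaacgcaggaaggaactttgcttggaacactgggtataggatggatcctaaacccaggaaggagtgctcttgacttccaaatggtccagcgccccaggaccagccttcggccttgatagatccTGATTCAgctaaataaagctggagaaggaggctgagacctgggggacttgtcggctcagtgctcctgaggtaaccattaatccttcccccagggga
Slc2a4 element: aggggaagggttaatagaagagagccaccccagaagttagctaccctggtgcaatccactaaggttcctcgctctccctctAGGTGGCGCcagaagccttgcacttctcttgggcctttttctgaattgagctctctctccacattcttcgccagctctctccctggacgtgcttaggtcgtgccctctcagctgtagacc
Slc2a1 upstream: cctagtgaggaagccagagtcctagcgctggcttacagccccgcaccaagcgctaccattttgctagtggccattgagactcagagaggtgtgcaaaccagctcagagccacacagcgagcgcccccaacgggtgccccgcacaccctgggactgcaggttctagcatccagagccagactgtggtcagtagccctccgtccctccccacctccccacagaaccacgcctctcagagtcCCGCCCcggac
Slc5a9 alternative start: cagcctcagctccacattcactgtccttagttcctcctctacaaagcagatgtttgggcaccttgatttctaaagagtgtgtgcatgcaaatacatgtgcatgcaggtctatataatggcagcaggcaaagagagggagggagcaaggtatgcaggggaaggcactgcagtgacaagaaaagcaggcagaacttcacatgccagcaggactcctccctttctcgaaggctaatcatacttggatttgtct
Slc2a5 element: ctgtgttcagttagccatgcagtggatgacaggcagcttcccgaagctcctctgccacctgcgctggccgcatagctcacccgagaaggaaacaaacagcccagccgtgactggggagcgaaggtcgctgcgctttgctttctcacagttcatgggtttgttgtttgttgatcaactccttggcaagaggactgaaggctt

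The motifs were searched on both strands, with overlaps kept: HNF4A as CAAAGTCCA, AP-1 as TGANTCA, the E-box CACGTG, the GC box GGGCGG, the CCAAT box, CTCF as AGGNGGCGC, and MEF2. The CTCF letters were added after the Slc2a4 element had been read. No match overlapped another in the printed sequences. The Slc5a2 stretch held 1 match to the loose letters searched for AP-1, at chr7:128265561-128265567. It reads TGATTCA, with T where N allows any base. Letters matching TGANTCA, with any base at N, were found in 6.05% of all 21938 stretches of 250 bases before a protein-coding gene. The Slc2a4 element held 1 CTCF match, at chr11:69949079-69949087, a motif present in 3.0% of the 52360 accessible regions of the series over 201 bases around their median summits. Slc2a1 had 1 GC box near its start, which 39.0% of upstream stretches also have. The Slc5a9 and Slc2a5 sequences matched none of these letters. For reference, HNF4A occurred in 0.337% of upstream stretches and 1.86% of regions. AP-1 occurred in 6.77% of regions, the E-box in 6.53% of upstream stretches and 5.31% of regions, the GC box in 21.2% of regions, and the CCAAT box in 36.0% and 25.0%. MEF2 was found in 0.465% and 0.302%, and CTCF in 3.24% of upstream stretches. A match describes the letters only.

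The summit lists held 29702 (Case 4) to 56659 (Ctrl 2) summits, with medians of 43012 in Ctrl, 34739 in Case and 40056.5 in Dapa. Read depth is unknown, since a list holds only positions and scores. To make the libraries comparable, each list was limited to its 29702 strongest summits and ranked. The rank percentile of a summit is 100 for the strongest of the list and close to 0 for the last, and a gene takes the value of its strongest summit, or 0 when it has none. Each value is therefore a rank within 1 mouse, not a signal. No pair of the 136 pairs of libraries held the same summits. Proximal tubule marker genes, as the label kidney would have it, had a summit within 1 kb of a start for 6 to 9 of 10 in every library, and liver markers for none of 4. Case 3 stood apart, with a mean overlap of regions with the other libraries (shared over all regions of a pair) of 0.42 where the others had 0.50 to 0.57, and its closest library was Dapa 8, which itself lay within the range of the others. Results that rest on this pair are also given without both, an alternative chosen after seeing the data.

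None of the 8 genes differed between groups after adjustment over all genes tested. Without adjustment, Case and Ctrl differed at 2 of them: Slc2a4 was higher in Case and Slc5a2 was lower. Dapa differed from neither group at any of the 8 genes under the same rule. Of 17961 genes tested between Case and Ctrl, 0.0% passed an adjusted p under 0.05, 3.56% were higher in Case at an unadjusted p under 0.05 and 7.99% were lower. With 8 genes, 1 called in each direction is read as no property of the transporters as a group. In the equal-length lists, 50.96% to 52.04% of genes had a summit within 1 kb of a start in Ctrl mice. The share was 45.66% to 50.02% in Case and 46.23% to 50.96% in Dapa. Its part in the lower Slc5a2 values of Case was not tested. Between Dapa and Case, 0.0% of 18281 genes passed with adjustment, 1.91% were higher and 1.47% lower without it. Between Dapa and Ctrl, 0.0% of 17781 genes passed, 4.26% were higher and 7.92% lower. The exact permutation test of 5 against 6 mice cannot give a p below 0.00433, nor 6 against 6 one below 0.00216. At the former size 1556 genes at that smallest p would be needed for any to pass with adjustment, and 372 reached it between Case and Ctrl. The median difference of the 8 genes was -8.56 percentile points between Case and Ctrl (all genes, -0.52), 5.10 between Dapa and Case (0.058) and -2.96 between Dapa and Ctrl (-0.36). Dapa minus Case and Dapa minus Ctrl each share mice with the first comparison, so the 3 columns of differences are not independent.

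**Figure D1:**
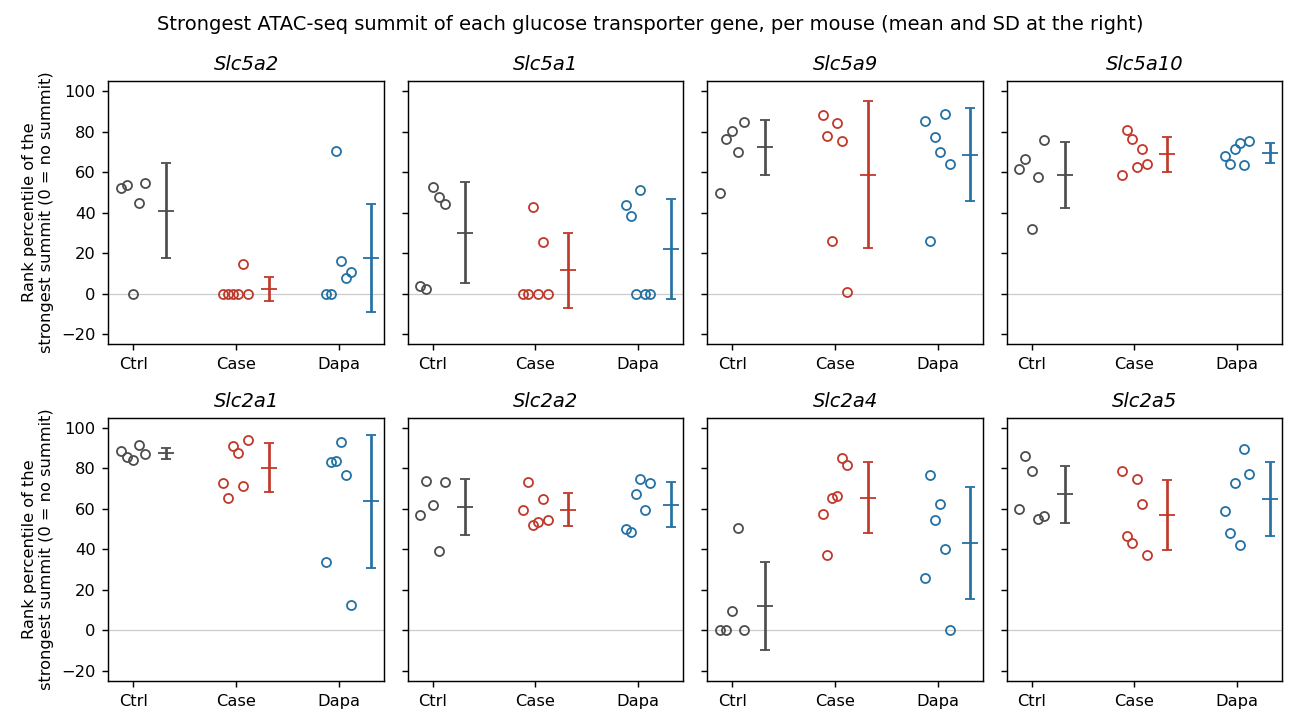
Rank percentile of the strongest summit of each gene (vertical axis, 0 for no summit) in each Ctrl, Case and Dapa mouse (points), with the group mean and SD at the right of each group. Slc5a2 is at 0 in 5 of 6 Case mice, and 5 of 6 Case mice lie above every Ctrl mouse for Slc2a4.

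Slc5a2 encodes SGLT2, the drug target (ENSMUSG00000030781.13, chr7:128265657-128272430). Its rank percentiles in Ctrl mice 1 to 5 were 52.2, 53.4, 0, 44.6 and 54.9. In Case the lowest and the median were 0 and the highest, in Case 5, was 14.7. In Dapa the lowest was 0, the median 9.21 and the highest, in Dapa 9, 70.5. So 4 of 5 Ctrl mice had a summit of moderate rank, 1 of 6 Case mice had a weak one, and 4 of 6 Dapa mice had one that ranked low in 3 of them. Case and Ctrl overlapped through Ctrl 3, which had none, and Dapa overlapped both, with Dapa 9 above every Ctrl mouse. The mean was 41.0 ± 23.3 (SD, n = 5) in Ctrl, 2.45 ± 6.00 (n = 6) in Case and 17.5 ± 26.7 (n = 6) in Dapa. Case minus Ctrl was -38.6 (exact permutation p = 0.0303, Benjamini-Hochberg adjusted p = 0.344), and 314 of 17961 genes had a larger difference in that direction. Leaving out 1 mouse gave -48.8 to -35.1, and without Ctrl 1, 2, 4 or 5 the exact permutation p was 0.0667. Without Case 3 and Dapa 8 the difference was -38.1 (exact permutation p = 0.0476). Dapa minus Case was 15.0 (exact permutation p = 0.152), and Dapa minus Ctrl was -23.6 (exact permutation p = 0.139), which turned to 2.63 in half-length lists (the strongest 14851 summits). Among the Dapa mice, Dapa 9 decided much of that height, since Dapa minus Case was 4.41 without it. Dapa minus Ctrl was -34.2 without Dapa 9 and -33.8 without Ctrl 3 (exact permutation p = 0.0476 each).

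Complete lists, with no equal length, gave the same order for Slc5a2. All Ctrl mice, 3 Case mice and 5 Dapa mice then had a summit, at mean percentiles of 61.1 ± 14.4 (n = 5), 13.8 ± 20.4 (n = 6) and 33.6 ± 23.7 (n = 6). Case minus Ctrl was -47.2 there (exact permutation p = 0.00866, adjusted p = 0.187). Complete lists were longer in Ctrl than in Case (medians of 43012 and 34739 summits), which can raise both rank and presence in Ctrl. The same limit holds for every other complete-list value in the text. It also holds for every value given below with a score of at least 5 and no equal length. The median score of a list was higher in Ctrl (group median 6.16) than in Case (5.10). In half-length lists Case minus Ctrl was -4.20 (exact permutation p = 0.121), and 4 mice kept an Slc5a2 summit there, Ctrl 1, Ctrl 2, Ctrl 5 and Dapa 9. In the equal-length lists the Slc5a2 summits fell into 3 elements. The summits of Case 1 and Case 6, found only in the complete lists, lay outside them, 4082 and 1573 bases from the gene start. The promoter element at chr7:128265310-128265897, with its median summit 58 bases before the gene start, was present in 3 Ctrl mice, 1 Case mouse and 2 Dapa mice. It spans the printed sequence. The element at chr7:128266024-128266559 lies inside the gene, at an alternative start, with its median summit 645 bases from the gene start. Here 3 Ctrl mice, no Case mouse and 1 Dapa mouse had a summit (Fisher's exact p = 0.0606 for Case against Ctrl). In complete lists its presence was 4 of 5, 0 of 6 and 4 of 6 mice (Fisher's exact p = 0.0152, Case against Ctrl, unadjusted). An intronic element 1944 bases in, 210 bases from an alternative start, had a summit in no Ctrl mouse, 1 Case mouse and 2 Dapa mice. It held the strongest Slc5a2 summit of the equal-length lists, in Dapa 9.

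**Figure D2:**
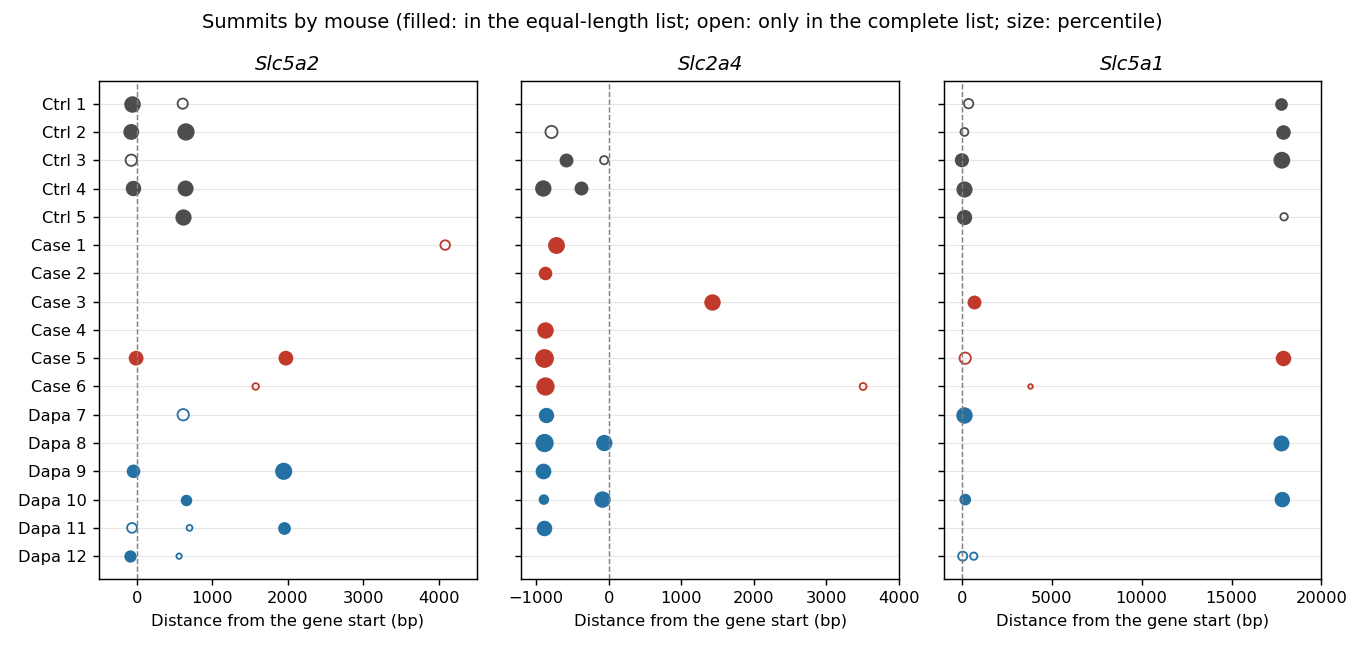
Positions of the summits of Slc5a2, Slc2a4 and Slc5a1 in each mouse (rows), by distance from the gene start in bases (horizontal axis). Filled circles are in the equal-length lists, open circles only in the complete lists, and the area grows with the percentile in the complete list. The plots share the rows but not the horizontal scale, and Slc5a1 summits further than 20000 bases from the start are not drawn.

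Slc5a1 encodes SGLT1 (ENSMUSG00000011034.6, chr5:33104219-33162870), which takes up the glucose that SGLT2 leaves. Ctrl mice 1 to 5 had rank percentiles of 3.67, 2.49, 52.5, 47.5 and 44.2. The Case mice had a lowest and a median of 0 and a highest of 43.0, in Case 3. The Dapa values ran from 0 through a median of 19.2 to 51.3, in Dapa 10. A summit was there in all 5 Ctrl mice, in 2 Case mice and in 3 Dapa mice, and 4 Case mice lay below every Ctrl mouse. Case minus Ctrl was -18.7 (exact permutation p = 0.139), Dapa minus Case 10.8 (exact permutation p = 0.394) and Dapa minus Ctrl -7.84 (exact permutation p = 0.446). Leaving out 1 mouse gave -25.6 to -13.1, 5.02 (without Dapa 10) to 17.1 (without Case 3) and -14.7 (without Ctrl 2) to -2.25 (without Ctrl 3) for these. In complete lists Case minus Ctrl was -37.6 (exact permutation p = 0.0346, Benjamini-Hochberg adjusted p = 0.302), and in half-length lists it was -0.99 (exact permutation p = 0.909). Without Case 3 and Dapa 8 it was -25 in the equal lists (exact permutation p = 0.0556). A promoter element (chr5:33103978-33105147) and an intronic element 17798 bases in were each present in 3 Ctrl mice, 1 Case mouse and 2 Dapa mice. Ctrl 3 and Dapa 10 were the mice with both.

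Slc5a9 encodes SGLT4 (ENSMUSG00000028544.14, chr4:111875375-111902918). In the equal-length lists its accessible site was a single region, chr4:111898456-111899089, which was found in all 17 libraries and holds an alternative start of the gene. Its median summit lay 4163 bases inside the gene, and no list of equal length held a summit at the outermost start. The percentiles were 49.9, 76.4, 80.4, 69.8 and 84.6 in Ctrl mice 1 to 5. Case ran from 0.71, in Case 6, through a median of 76.6 to 88.5, and Dapa from 26.1, in Dapa 8, through 73.8 to 88.8. The groups overlapped widely, and only Case 6, Case 3 and Dapa 8 ranked below 49.9. Case minus Ctrl was -13.5 (exact permutation p = 0.489), Dapa minus Case 9.93 (exact permutation p = 0.617) and Dapa minus Ctrl -3.52 (exact permutation p = 0.810). Without Case 3 and Dapa 8, the differences were -6.93, 11.9 and 4.99, so that the last changed sign. Without Case 6, Case minus Ctrl was -1.84 and Dapa minus Case -1.68. Case minus Ctrl was -2.55 in half-length lists (exact permutation p = 0.957). With a score of at least 5 and no equal length it was -21.6 (exact permutation p = 0.307). Slc5a9, Slc2a1 and Slc2a5 lie on chromosome 4 with Lepr, 10.2, 17.4 and 48.4 Mb from it, so a local effect of the BKS haplotype and one of diabetes cannot be told apart at these genes.

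Slc5a10 encodes SGLT5 (ENSMUSG00000042371.12, chr11:61672781-61720826), and its window held 11 of the 32 regions of the 8 genes. The region found in all 17 libraries, chr11:61683784-61684688, is a start of Fam83g, a gene that lies within Slc5a10, and its summits cannot be given to either gene alone. The start of Slc5a10 itself (chr11:61720563-61721223) was open in 5 mice of each group, the exceptions being Case 3 and Dapa 8. Over the whole window Ctrl mice 1 to 5 had 61.4, 66.3, 32.0, 57.7 and 75.8. Case ran from 58.6 through a median of 67.7 to 80.7 and Dapa from 63.6 through 69.7 to 75.6. These ranges overlap, and the differences were 10.2 for Case minus Ctrl (exact permutation p = 0.242), 0.55 for Dapa minus Case (exact permutation p = 0.903) and 10.8 for Dapa minus Ctrl (exact permutation p = 0.156). The last was 15.1 without Ctrl 5 (exact permutation p = 0.0381) and 4.13 without Ctrl 3 (exact permutation p = 0.343), and Case minus Ctrl was 3.58 without Ctrl 3. In complete lists Case minus Ctrl was 1.70 and Dapa minus Ctrl 4.55.

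The picture at Slc5a10 changed when summits within 1 kb of a start of another gene were left out, which removed the Fam83g start. Ctrl mice 1 to 5 then stood at 41.0, 52.3, 32.0, 57.7 and 53.8. Case ran from 37.8, in Case 3, through 63.2 to 75.6, and the Dapa values stayed at 63.6 to 75.6. Every Dapa mouse then ranked above every Ctrl mouse, and so did every Case mouse but Case 3. Regions 11763, 18980 and 20677 bases in also overlap Fam83g, and they were kept. The values of Ctrl 3, Ctrl 4 and Case 5 came from the region 20677 bases in. That of Case 2 came from the region 18980 bases in. These values cannot be given to either gene alone, so the separation is not one of Slc5a10 sites only. Dapa minus Ctrl was 22.1 (exact permutation p = 0.00433, the smallest possible, Benjamini-Hochberg adjusted p = 0.214), Case minus Ctrl 14.2 (exact permutation p = 0.0823) and Dapa minus Case 7.82 (exact permutation p = 0.206). Without Case 3 and Dapa 8 as well, an alternative added after the data were seen, Case minus Ctrl was 19.0 (exact permutation p = 0.00794, Benjamini-Hochberg adjusted p = 0.266), Dapa minus Ctrl 23.2 (exact permutation p = 0.00794, Benjamini-Hochberg adjusted p = 0.239) and Dapa minus Case 4.17 (exact permutation p = 0.302). With these 2 libraries kept, 10.4% of genes had an unadjusted p under 0.05 between Dapa and Ctrl. A region 7360 bases upstream (chr11:61727886-61728547), singled out after its values were seen, was present in 1 Ctrl mouse, no Case mouse and 4 Dapa mice (Fisher's exact p = 0.0606 for Dapa against Case).

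Slc2a1 encodes GLUT1 (ENSMUSG00000028645.11, chr4:119108711-119137983), the transporter that most cell types use for basal glucose uptake. Pooled over 17 mice, it had the highest mean percentile of the 8 genes, 76.5 ± 22.0. In Dapa alone its mean (63.7) lay below those of Slc5a10 (69.4), Slc5a9 (68.7) and Slc2a5 (64.7). A promoter region (chr4:119108398-119109482) was present in all 17 mice. In Dapa 11 the strongest summit was not there but in a region 2803 bases upstream. Ctrl mice 1 to 5 had 88.5, 85.8, 83.9, 91.5 and 87.1. Case ran from 65.1 through 80.3 to 93.8, and Dapa from 12.3, in Dapa 12, through 79.9 to 93.0. Ctrl values sat in a narrow band, and 5 of 6 Dapa mice ranked below all of it, 2 of them (Dapa 12 and Dapa 7, at 33.6) far below. Dapa minus Ctrl was -23.6 (exact permutation p = 0.0996), Case minus Ctrl -7.00 (exact permutation p = 0.234) and Dapa minus Case -16.6 (exact permutation p = 0.327). Without Case 2, Case minus Ctrl was -3.96. It was -14.0 in half-length lists (exact permutation p = 0.234). With a score of at least 5 and no equal length it was -17.9 (exact permutation p = 0.0649). Without Dapa 12, Dapa minus Ctrl was -13.3 (exact permutation p = 0.183) and Dapa minus Case -6.33 (exact permutation p = 0.654), and without Dapa 7, Dapa minus Case was -10.6 (exact permutation p = 0.645). Without Dapa 10, Dapa minus Ctrl was -29.5 (exact permutation p = 0.00794). Complete lists gave -17.7 for Dapa minus Ctrl (exact permutation p = 0.0433, Benjamini-Hochberg adjusted p = 0.398). An intronic region 17341 bases from the start was present in Case 3 and Dapa 8 only, at 90.3 and 80.1.

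Slc2a2 encodes GLUT2 (ENSMUSG00000027690.13, chr3:28697903-28731359), the basolateral exit of the early proximal tubule. All 17 mice had a summit, at 57.1, 73.5, 61.7, 39.4 and 73.1 in Ctrl mice 1 to 5. Case ran from 52.1 through 56.8 to 73.4 and Dapa from 48.4 through 63.6 to 74.6. Over the equal-length window the groups lay close together, with differences of -1.33 for Case minus Ctrl (exact permutation p = 0.861), 2.48 for Dapa minus Case (exact permutation p = 0.669) and 1.15 for Dapa minus Ctrl (exact permutation p = 0.883). Within 1 kb of a start the means were 58.8 ± 14.6 (n = 5), 37.4 ± 32.0 (n = 6) and 57.0 ± 9.68 (n = 6), with Case minus Ctrl at -21.4 (exact permutation p = 0.225) and Dapa minus Case at 19.5 (exact permutation p = 0.208). With a score of at least 5 and no equal length, Case minus Ctrl was -20.5 (exact permutation p = 0.143). The start region, chr3:28697645-28698314, was present in 5 Ctrl, 4 Case and 4 Dapa animals. An intronic region 24132 bases in, chr3:28721137-28722373, was present in 5, 4 and 5 mice, and a region 2165 bases upstream in 5, 6 and 3. The median summit of the intronic region lies 518 bases from an alternative start of the gene. Its summits therefore count in the values within 1 kb of a start. An antisense gene, 1700112D23Rik, overlaps the intronic region.

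Slc2a4 encodes GLUT4 (ENSMUSG00000018566.14, chr11:69942539-69948188) and showed the widest difference of the 8 genes in the equal-length lists. Ctrl mice 1 to 5 had rank percentiles of 0, 0, 9.72, 50.4 and 0. In Case the lowest was 37.3, the median 66.1 and the highest 85.3, and in Dapa 0, 47.2 and 76.8. Every Case mouse had a summit and 5 of 6 ranked above every Ctrl mouse, with Case 2 below Ctrl 4. The mean was 12.0 ± 21.9 (n = 5) in Ctrl, 65.6 ± 17.4 (n = 6) in Case and 43.2 ± 27.5 (n = 6) in Dapa. Case minus Ctrl was 53.6 (exact permutation p = 0.00866, Benjamini-Hochberg adjusted p = 0.244), and 3 of 17961 genes had a larger difference in that direction. Dapa minus Case was -22.4 (exact permutation p = 0.115), and Dapa minus Ctrl was 31.2 (exact permutation p = 0.0736). Leaving out any 1 mouse kept Case minus Ctrl between 49.6 and 63.2, and without Case 3 it was 53.6 (exact permutation p = 0.0159). In complete lists it was 39.6 (exact permutation p = 0.0346, Benjamini-Hochberg adjusted p = 0.302), smaller in size than the -47.2 of Slc5a2. There 3 Ctrl, 6 Case and 5 Dapa mice had a summit, with Ctrl 2 at 43.6 and Ctrl 3 at 43.4. The 0 of Ctrl 2 above thus came from the cut to equal length. Equal-length lists ended at a higher mean score in Ctrl (4.72) than in Case (3.38), so summits of lower score were kept in Case. In half-length lists Case minus Ctrl was 35.3 (exact permutation p = 0.0260, Benjamini-Hochberg adjusted p = 0.348). Dapa minus Case was -29.1 without Dapa 8 (exact permutation p = 0.0390, Benjamini-Hochberg adjusted p = 1.0), -29.1 without both Case 3 and Dapa 8 (exact permutation p = 0.0635) and -13.7 without Dapa 12 (exact permutation p = 0.229). Dapa minus Ctrl was 24.5 without both (exact permutation p = 0.135), 39.9 without Dapa 12 (exact permutation p = 0.0238) and 40.8 without Ctrl 4 (exact permutation p = 0.0476).

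The Slc2a4 summits gathered in 1 upstream region, chr11:69947997-69949341, with the median summit 880 bases before the gene start. Mice with this region numbered 2 in Ctrl, 5 in Case and 5 in Dapa (Fisher's exact p = 0.242 for Case against Ctrl). The CTCF letters printed above lie in this region. The summit of Case 3 was elsewhere, in an intron 1430 bases from the start, so within 1 kb of a start Case minus Ctrl was 42.7 (exact permutation p = 0.0519). With a score of at least 5 and no equal length it was 35.4 (exact permutation p = 0.0563). Genes of skeletal muscle and fat, where GLUT4 is best known, were examined beside it. Summits within 1 kb of a start were present for 1 to 2 of the 7 marker genes in Ctrl, 0 to 2 in Case and 1 to 2 in Dapa. Their mean percentile ranged from 10.0 to 16.2 in Ctrl, 0 to 12.8 in Case and 3.27 to 12.9 in Dapa. Ckm had such a summit in 16 libraries, and Myod1, Myh4, Adipoq and Fabp4 in none. Leukocyte markers had such a summit for none of 8 in Ctrl, for 0 to 2 in Case and for 0 to 2 in Dapa. Their mean percentile was 0 in every Ctrl mouse, 0 to 13.6 in Case (median 8.67) and 0 to 4.43 in Dapa (median 0.57). Cd74 had a summit within 1 kb of a start in 5 libraries, and each other leukocyte marker in at most 1. Case 4 and Case 6 had 0 leukocyte markers with such a summit. The means are thus no rise across the list. Over the gene window Cd74, an antigen presentation gene, differed by 51.8 for Case minus Ctrl (exact permutation p = 0.0909) and by -45.9 for Dapa minus Case (exact permutation p = 0.0606). The other leukocyte markers differed by -6.12 (Lyz2) to 12.8 (Itgam) and by -12.8 (Itgam) to 16.1 (Cd3e), in no common direction. Ptprc and Itgam had no summit within 1 kb of a start in any mouse. Cd74 is named for the size of its difference, after its values were seen, and the part of the leukocyte markers in the result was not tested.

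Slc2a5 encodes the fructose transporter GLUT5 (ENSMUSG00000028976.10, chr4:150119283-150144169). Its main site was the intronic element 13767 bases from the start (chr4:150132635-150133370), present in every mouse but Case 3. Over the window, Ctrl mice 1 to 5 had 59.8, 86.1, 78.6, 54.9 and 56.4. Case ran from 37.2 through 54.3 to 78.6 and Dapa from 41.9 through 65.9 to 89.4, so that all groups overlapped. The differences were -10.1 for Case minus Ctrl (exact permutation p = 0.325), 7.72 for Dapa minus Case (exact permutation p = 0.468) and -2.41 for Dapa minus Ctrl (exact permutation p = 0.818). Without Ctrl 2 or Case 6, Case minus Ctrl was -5.37 or -6.17. From 2 kb upstream it was -16.9 (exact permutation p = 0.264). With a score of at least 5 and no equal length it was -27.2 (exact permutation p = 0.139). Dapa minus Case was 2.78 without Dapa 11, 3.76 without Case 6, 4.92 without Case 3, 12.3 without Dapa 10 and 12.0 without Case 1. A start region (chr4:150119648-150120210), singled out after its values were seen, showed another order. No Ctrl mouse, 3 Case mice and 4 Dapa mice had it (Fisher's exact p = 0.0606 for Dapa against Ctrl). Within 1 kb of any start of Slc2a5, including the alternative starts inside the gene, Case minus Ctrl was 25.7 (exact permutation p = 0.0476, Benjamini-Hochberg adjusted p = 0.402) and Dapa minus Ctrl 26.0 (exact permutation p = 0.0909), opposite in sign to the window. A start of the noncoding gene Gm13093 lies within 1 kb of the start region. An alternative start inside the gene had a region (chr4:150128497-150129106) in 1 mouse of each group.

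**Figure D3:**
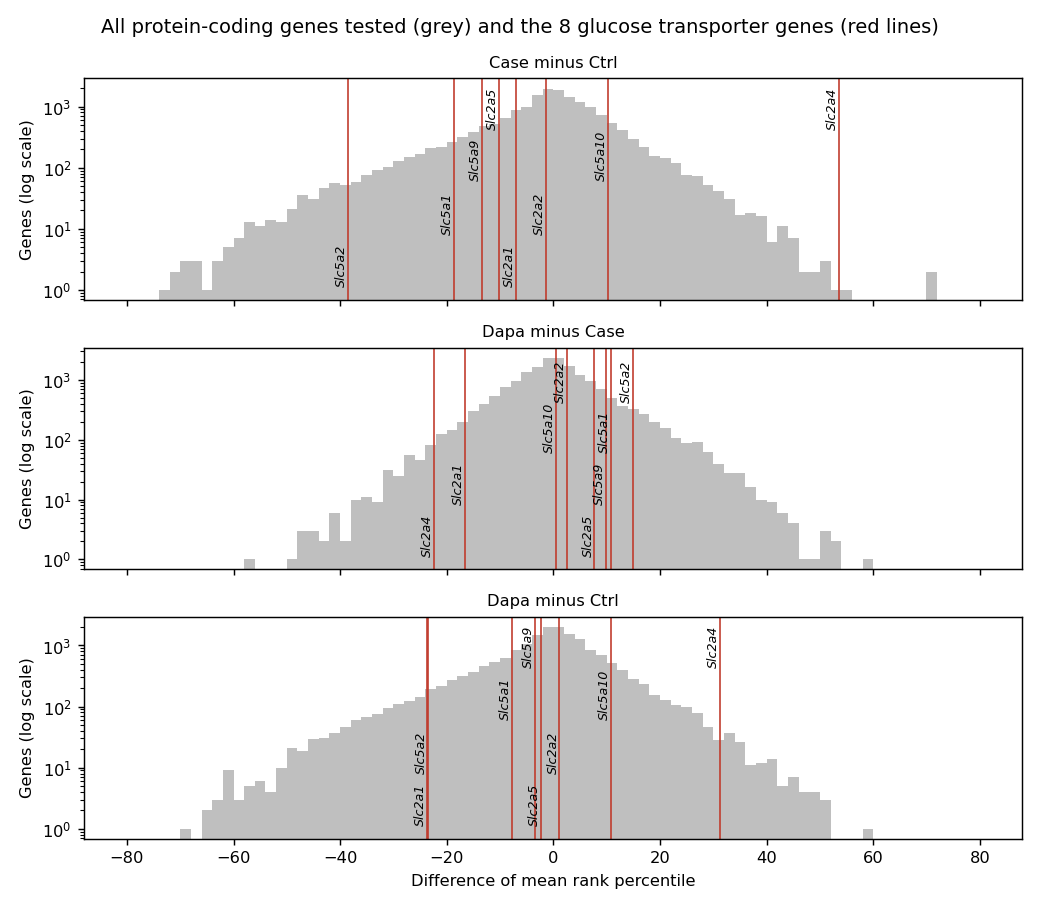
Differences of mean rank percentile between groups for all protein-coding genes tested (grey, number of genes on a log scale) and for the 8 transporter genes (red lines). Slc2a4 lies at 53.6 in Case minus Ctrl, near the right edge of all genes, and Slc5a2 at -38.6.

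The order of the 8 genes by mean percentile within 1 kb of a start was Slc2a1 (76.4), Slc5a9 (66.2), Slc2a2 (50.6), Slc5a10 (49.1), Slc2a4 (38.1), Slc2a5 (19.9), Slc5a2 (19.1) and Slc5a1 (12.3). The step from Slc5a9 to Slc2a2 was 15.6 ± 19.1 (SD of the difference, n = 17), and Slc5a9 ranked higher in 14 of 17 mice. At the other steps the higher gene ranked above the next in 7 to 12 of 17 mice. The mean was under the SD of the difference at every step, that from Slc5a9 to Slc2a2 included. The steps were not tested. Over the whole window Slc5a2 came last, at 19.1 ± 25.0, and was found in 9 of 17 mice. These orders pool the groups, and in Ctrl alone the window mean of Slc5a2 (41.0) lay above those of Slc5a1 (30.1) and Slc2a4 (12.0). In Dapa alone the mean of Slc2a1 within 1 kb of a start (63.3) lay below that of Slc5a9 (68.7).

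Across the 8 genes, 32 accessible regions were found in at least 2 libraries, of 52360 in the series. Introns held 17 of them, sequence upstream of the gene 9, and exons or untranslated parts 6, and 13 lay within 1 kb of a start. All 17 libraries shared 3 of the 32, and 15.0% of all regions were shared in this way. Presence was tested at 9, 7 and 12 of the 32 for Case against Ctrl, Dapa against Case and Dapa against Ctrl, where the number of libraries allowed it. None had a Fisher's exact p under 0.05, the smallest among those tested being 0.242, 0.242 and 0.0606. The Slc5a2 region 645 bases in (Case against Ctrl) and the Slc5a10 region 7360 bases upstream (Dapa against Case), whose p is given above, were found in too few mice of the groups compared to reach 0.05 and were not among those tested. Over all regions tested, 0.0% of 11407, 0.0% of 7224 and 0.0% of 10868 passed with adjustment, and 10.2%, 1.18% and 7.91% had an unadjusted p under 0.05. Regions of the 8 genes were found in a smaller share of Case than of Ctrl mice at 18 of 32 (56.2%, against 48.1% of all 52360 regions) and in a larger share at 9 (28.1%, against 32.5%). For Dapa against Case, 16 were found in a larger share (50.0%, against 34.2% of all regions) and 7 in a smaller one (21.9%, against 25.3%). Neighbouring regions of a gene are not independent, and these shares were not tested.

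**Figure D4:**
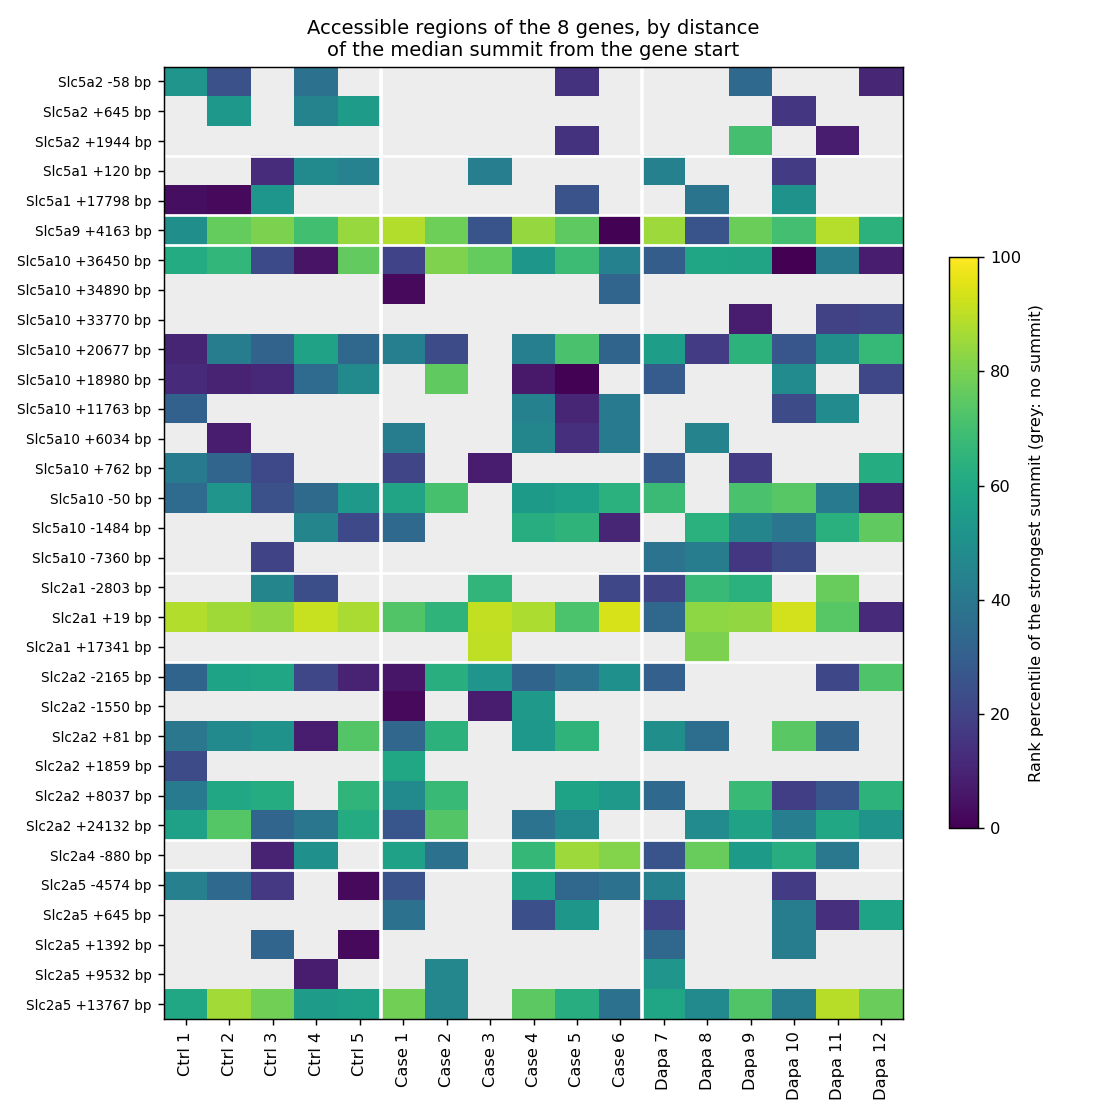
Rank percentile (colour) of the strongest summit in each of the 32 regions (rows, named by gene and by the distance of the median summit from the gene start in bases) in each mouse (columns). Grey cells hold no summit. Rows for Slc5a9, the Slc2a1 promoter and the Fam83g start within Slc5a10 are filled in all 17 mice, and in the Slc5a2 rows Case 5 is the only Case mouse with a summit.

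The other genes of both families were taken from a list of 17, and 10 genes known to work with the transporters formed a second list. Of the 17, 15 were tested between Case and Ctrl, 15 between Dapa and Case and 14 between Dapa and Ctrl, and 0 passed with adjustment. Slc2a3, which encodes GLUT3, was the only one with an unadjusted p under 0.05, in Dapa minus Ctrl, at -4.32 (exact permutation p = 0.0260, Benjamini-Hochberg adjusted p = 0.323). It had a summit in all 17 mice, with a median of 98.7 in Ctrl, 96.7 in Case and 93.1 in Dapa. Over all genes tested, 7.92% were lower in Dapa than in Ctrl at that threshold. The median difference of the list of 17 was -3.33, 1.55 and -1.39 in the 3 comparisons. Of the 10 partner genes, 1 was higher in Case than in Ctrl and 1 was higher in Dapa than in Ctrl at an unadjusted p under 0.05, none was lower, and 0 passed with adjustment. Over all genes tested, 3.56% and 4.26% were higher in this way, so the counts are read as no property of the list. The partner gene higher in Dapa than in Ctrl, Hnf4a, a transcription factor of the proximal tubule, differed by 5.00 (exact permutation p = 0.0260, Benjamini-Hochberg adjusted p = 0.323). Pdzk1ip1, which encodes a partner protein of SGLT2, did not reach an unadjusted p under 0.05 in any comparison. The median difference of the partner list was 2.24, 0.14 and 4.34.

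Among 18690 other genes, the 5 whose values were most like those of Slc5a2 over the 17 mice were Mrpl1 (Spearman's rho = 0.83), Rps29 and Lrr1 (both 0.80, with identical values because they share summits), Mettl13 (0.79) and Arhgap42 (0.78). The points share library and list, and the highest of so many coefficients is given as a description. Among pairs of the 8 genes the coefficient ranged from -0.468, between Slc2a1 and Slc2a5, to 0.60, between Slc5a9 and Slc2a5.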

How the data were processed

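Per the labels, kidneys of 17 mice were profiled by ATAC-seq, and the authors deposited 1 MACS2 summit list per mouse. The unit of column 5 in these deposited lists is the MACS2 score of each summit, a −log10 of its p- or q-value. Per the study's methods and the submitters' processing notes, the authors aligned reads to mm10 with Bowtie2, removed PCR duplicates and blacklisted regions, shifted reads to the transposase insertion site and called peaks with MACS2 on each library by itself. Versions of Bowtie2 and MACS2 are not given in the sources used here, and depth is unknown. List length differed between libraries, which would give longer lists more summits per gene, hence the equal-length ranks. The window is 10 kb upstream to the gene end in the GENCODE annotation (protein-coding genes). Lists were limited to the 29702 strongest summits on 19 autosomes, X and Y, and ranked within each list. Gene values were compared by an exact 2-sided permutation test of the difference in means, and presence of merged regions (summits extended by 250 bp, in at least 2 libraries) by Fisher's exact 2-sided test where 0.05 could be reached, with Benjamini-Hochberg adjustment over all genes or regions tested. Tests were checked on simulated data. Named were all 8 genes, for each the region nearest a start within 1 kb and the region in most libraries, list genes at an unadjusted p under 0.05 and the 5 genes most like Slc5a2. Other regions in the text (Slc5a2 1944, Slc5a1 17798 and Slc2a1 17341 bases in, those upstream of Slc2a1 and Slc2a2, and those singled out) were chosen after their values were seen. Some list genes, 1 of them at an unadjusted p under 0.05, and 1 motif are not reported here. The members and lists were chosen with earlier results of these data known. Replicates are the separately labelled kidney samples of a group, and p-values measure the spread between them. Markers of podocytes, thick limb and distal tubule, collecting duct and endothelium had a start summit for at most 3 of 5, 3 of 5, 2 of 5 and 1 of 5 genes. Alternatives were complete and shorter lists, a score of at least 5, other windows and extensions, each mouse left out and same-numbered mice as pairs. Python 3.11.15, numpy 2.4.6, pandas 2.3.3, scipy 1.17.1 and matplotlib 3.10.9 were used.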

Additional observations from a re-analysis of the deposited data

Results flagged for a closer look

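In 24 sets of values (8 genes in 3 groups), 1 mouse lay far from the rest of its group in 4, where chance flags about 1 in 20 for values with no floor. That rate does not hold for values piled at 0, as in the Case and Dapa groups of Slc5a2 and the Ctrl group of Slc2a4. For Slc5a2 these were Ctrl 3 at 0 (other Ctrl mice 44.6 to 54.9), Case 5 at 14.7 (other Case mice 0) and Dapa 9 at 70.5 (other Dapa mice 0 to 15.9). For Slc2a4, Ctrl 4 at 50.4 stood above other Ctrl mice at 0 to 9.72.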

How the results depend on the processing

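The number of the 8 genes, and of their regions, past an adjusted p under 0.05 was 0 in each of the 3 comparisons under every alternative run. Between Case and Ctrl, the 2 genes at an unadjusted p under 0.05 became 3 in complete lists, 1 in half-length lists and 1 with a score of at least 5. Over all genes tested, the share at that threshold was 11.6% in the equal-length lists. It was 13.6%, 11.5% and 18.8% in these alternatives. Some differences changed sign. For Slc2a2, Dapa minus Ctrl was -1.16 in complete lists, -1.37 in half-length lists, -7.73 with the score minimum, -0.18 from 2 kb upstream and -1.88 within 1 kb of a start, and Case minus Ctrl was 0.181 without Case 3 and Dapa 8. For Slc2a5 within 1 kb of a start, Case minus Ctrl was 25.7 and Dapa minus Ctrl 26.0. Over the window, Dapa minus Ctrl for Slc2a5 was 0.962 without Case 3 and Dapa 8, and 0.961 when summits near starts of other genes were left out too, which gave the same signs and values for Slc2a2 and Slc5a9 as leaving out the pair. For Slc5a10, Case minus Ctrl was -3.24 with the score minimum. Dapa minus Ctrl was 2.63 for Slc5a2 and 0.88 for Slc5a9 in half-length lists, and 4.99 for Slc5a9 without Case 3 and Dapa 8. In percentage points of libraries, half-length lists gave 43.3 (Case minus Ctrl) and 10 (Dapa minus Ctrl) for the Slc5a10 start, 10 (Case minus Ctrl) for the Slc2a2 start, and 16.7 (Dapa minus Ctrl) for the Slc2a5 region 9532 bases in, also 16.7 with the score minimum, which gave -16.7 (Dapa minus Case) for the Slc5a2 promoter. The causes were not tested. Leaving out 1 mouse gave, for Case minus Ctrl, -6.72 to 1.81 at Slc2a2 and -20 to 16.7 at that Slc2a5 region. For Dapa minus Case it gave -1.68 to 18.4 at Slc5a9, -1.52 to 2.92 at Slc5a10 and -0.0184 to 5.24 at Slc2a2. For Dapa minus Ctrl it gave -9.09 to 4.99 at Slc5a9, -4.24 to 4.29 at Slc2a2, -7.35 to 2.34 at Slc2a5 and -20 to 16.7 at that Slc2a5 region.

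With same-numbered Ctrl and Case mice as a replicate block (5 pairs, smallest exact permutation p 0.0625), Slc2a4 differed by 50.4 (exact permutation p = 0.0625) and Slc5a2 by -38.1 (exact permutation p = 0.125), and 0 genes were called. Correlations of same-numbered mice ran from -0.0380 to 0.0576, so the numbers were not taken as a pairing. Summit scores without read counts leave depth unknown, and a missing summit can be a weak one below the list's end.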
